A study of Chlorocebus aethiops with 12 samples.

Results

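The response to dexamethasone (Dex) was followed in COS-1 cells that carried the S211A form of the glucocorticoid receptor alone. It was read from 6 of the 12 arrays of the series, taken by their titles: 3 arrays of vehicle-treated cells and 3 of cells given 100 nM Dex, both for 6 h. COS-1 is a kidney cell line from the African green monkey, with fibroblast-like growth and SV40 large T antigen. In both groups the cells were transiently transfected with S211A with a transfection reagent, held in medium with 10% charcoal-stripped serum, which is poor in steroids, and treated 48 h after transfection. The other 6 arrays came from cells transfected with S211A together with MDFIC, again 3 with vehicle and 3 with 100 nM Dex for 6 h. None of the 4 groups was labelled as given a wild-type receptor or no receptor, so that the values describe hormone against vehicle in S211A cells and nothing about the mutation itself. The labels call the 3 samples of a group biological replicates.

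The glucocorticoid receptor is a transcription factor that waits in the cytoplasm bound to chaperones of the HSP90 machinery. A glucocorticoid such as Dex releases it to the nucleus, where it binds DNA at glucocorticoid response elements or contacts other factors, raising some genes and lowering others. The serine replaced in S211A lies in the activation domain at the amino terminus and is phosphorylated after hormone binds. An alanine at that place cannot be phosphorylated. MDFIC is a protein with a MyoD family inhibitor domain, and the series asks whether its influence on the receptor needs this serine.

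The arrays were single-colour Agilent arrays, and the grid identifier in the file headers is that of a human whole-genome design, so that monkey RNA was read with human probes. Each probe carries an accession, a database identifier of the transcript it was designed on, and the files do not pair accessions with gene names. Values are therefore given by accession or by group of accessions, and no more than 2 rises and 2 falls are named, apart from 1 accession singled out later. The check of kidney and fibroblast markers, of receptor level and of the glucocorticoid pathway lists needs names and was not analysed here. All 3 vehicle arrays and Dex replicate 1 lay on slide 1 of 4 arrays, and Dex replicates 2 and 3 lay on slide 2. Between 67.7% and 71.2% of probes stood well above background on vehicle arrays, 71.7% on Dex replicate 1, and 77.3% and 79.8% on Dex replicates 2 and 3. Vehicle arrays correlated with each other with r of 0.992 to 0.993 and Dex arrays with r of 0.986 to 0.993, across accessions, which are not independent replicates. Between vehicle and Dex arrays r was 0.985 to 0.992, nearly the same as within Dex. The number of arrays limits the precision.

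Dex moved the largest responders many-fold within 6 h, and more accessions were called higher than lower. Of 24586 accessions tested, 6.50% were called at a limma adjusted p under 0.05, of which 1059 rose (4.31% of all tested) and 540 fell (2.20%). The size of a called rise had a median of 0.53 on the log2 scale, or 1.45-fold, and the median called fall was -0.37. Rises of at least 2-fold numbered 195 (0.793% of all tested) and falls of that size 12 (0.0488%). Of these, 106 rises and 9 falls were measured well above background on all 6 arrays. The other rises include accessions that entered the test through the Dex arrays and whose fold under vehicle is only bounded, so that 195 against 12 supports no direction. In these bulk samples, fewer transfected or responding cells and less RNA per cell cannot be told apart. Centring each array on its median, in place of the 75th percentile of its signals, gave 697 rises and 654 falls. The deposited signals without scaling gave 425 and 81, so that the balance of directions depends on the scaling, although the median change of all accessions lay between -0.04 and 0.02 under each scaling.

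**Figure D1:**
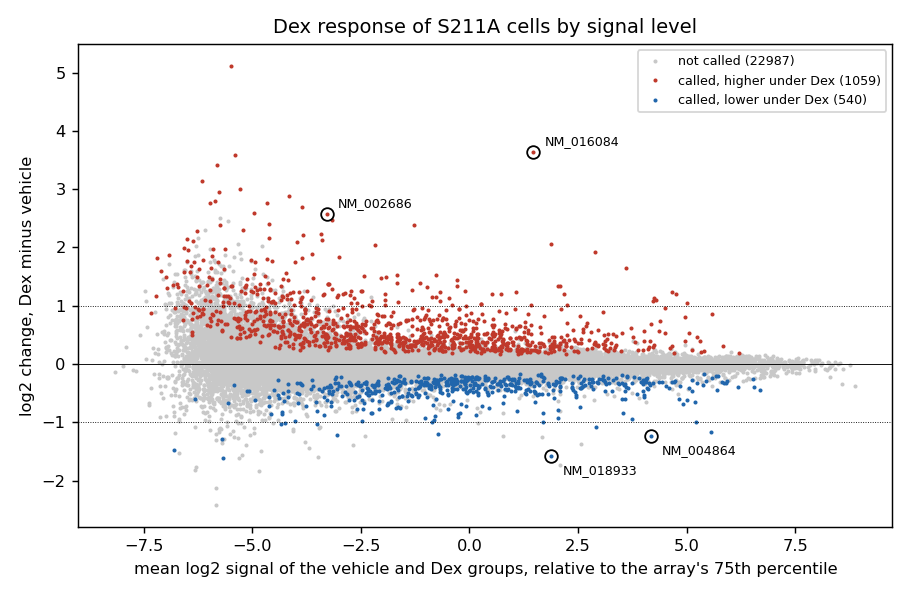
Log2 change (Dex minus vehicle, vertical axis) of each of the 24586 accessions against its mean log2 signal over both S211A groups relative to the array's 75th percentile (horizontal axis). Called rises (1059) are red, called falls (540) blue and the rest grey, dotted lines mark 2-fold, and circles mark the 4 named accessions. Many of the largest plotted rises lie at low signal, where a fold against vehicle arrays near background is only bounded. NM_016084, at rank 2 among the plotted rises, was well above background on all 12 arrays.

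Among transcripts measured on all 6 arrays, the largest rise was that of NM_016084. Its log2 signal relative to the array's 75th percentile was -0.28, -0.37 and -0.39 under vehicle and 3.35, 3.35 and 3.18 under Dex. The Dex arrays lay far above the vehicle arrays, and the Dex array that shared slide 1 with them was level with the highest. The vehicle mean was -0.35 ± 0.06 and the Dex mean 3.29 ± 0.10 (SD, n = 3). Dex thus raised it 12.4-fold (log2 3.64, SE 0.08, 95% interval 3.46 to 3.81, limma adjusted p = 2.76e-08). In the order of all accessions it moved from the percentile 63.4 under vehicle to 90.8 under Dex. A further probe of the same accession read a dimmer signal, with a mean of -4.86 under vehicle and -1.65 under Dex, and a rise of 3.21.

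NM_002686 had the next largest rise of this kind, from a low starting signal. It read -4.63, -4.61 and -4.48 under vehicle and -2.21, -1.90 and -1.88 under Dex. No Dex array overlapped a vehicle array, and the lowest Dex value was that of the array on slide 1. The group means were -4.57 ± 0.08 and -1.99 ± 0.19 (SD, n = 3), a 5.96-fold rise (log2 2.58, SE 0.11, 95% interval 2.33 to 2.82, limma adjusted p = 9.73e-07). Dex replicate 1 alone lay 2.36 above the vehicle mean and the mean of the other Dex arrays 2.68 above it. The transcript stood at the percentile 21.1 of all accessions under vehicle and 48.2 under Dex. Its fold depended on the background correction: with normexp, whose offset shrinks dim signals, the change was 1.48.

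The largest fall measured on all 6 arrays was that of NM_018933. It read 2.75, 2.56 and 2.72 under vehicle and 1.10, 1.19 and 1.01 under Dex, with a gap between the groups many times their spread. The means of 2.68 ± 0.10 and 1.10 ± 0.09 (SD, n = 3) gave a 2.98-fold fall (log2 -1.58, SE 0.10, 95% interval -1.79 to -1.36, limma adjusted p = 1.02e-05). The array on slide 1 and those on slide 2 gave nearly the same change, -1.58 in each case.

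NM_004864, an abundant transcript, had the next largest fall. It read 4.76, 4.80 and 4.83 under vehicle, in the percentile 96.1 of all accessions, and 3.64, 3.60 and 3.46 under Dex. Its vehicle arrays were the tightest of the 4 accessions, with a mean of 4.80 ± 0.03 (SD, n = 3) against 3.57 ± 0.09 under Dex. That is a 2.34-fold fall (log2 -1.23, SE 0.06, 95% interval -1.37 to -1.09, limma adjusted p = 3.28e-06). Even after the fall it stayed among the brighter accessions, at the percentile 91.9. On slide 1 alone, where 1 Dex array stands against 3 vehicle arrays, its change was -1.16.

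**Figure D2:**
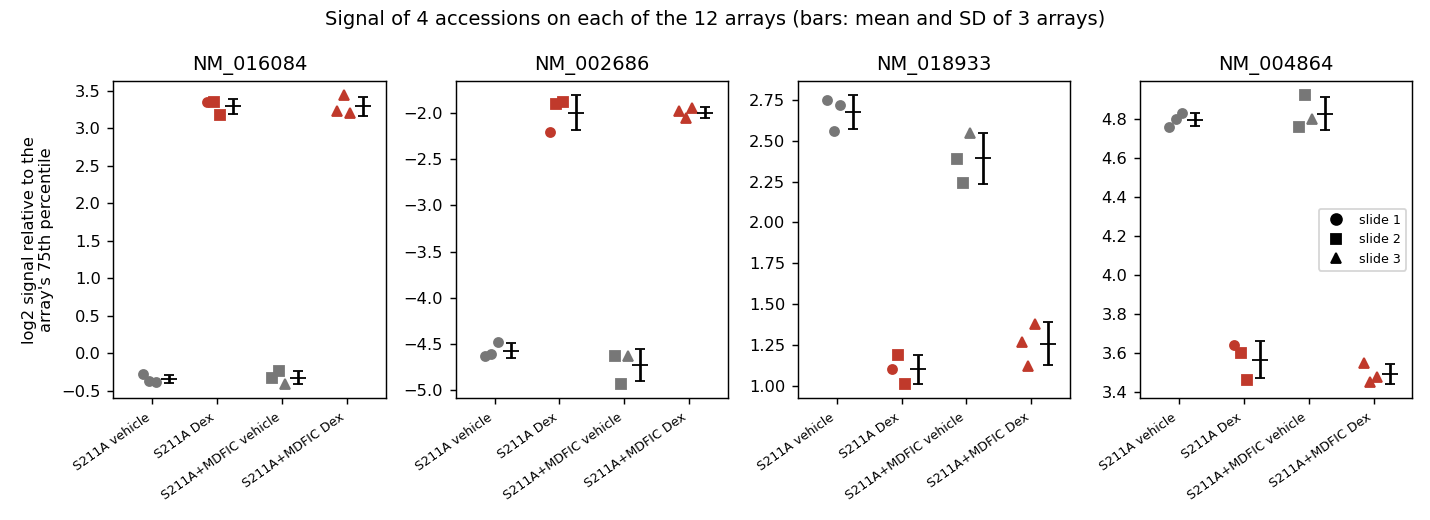
Log2 signal relative to the array's 75th percentile for the 4 named accessions, one panel each with its own vertical axis, in the 4 groups (horizontal axis). Each symbol is an array, its shape gives the slide, vehicle is grey and Dex red, and the bar beside each group is the mean and SD of 3 arrays. In every panel the S211A Dex arrays lie apart from the S211A vehicle arrays, also the Dex array that shares slide 1 with them.

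The strongest rises form a set of 106 accessions measured on all 6 arrays that rose at least 2-fold. Their median log2 signal went from -3.35 under vehicle to -2.08 under Dex, and the middle 50% of the changes lay between 1.12 and 1.43. Replicates were tight, with a median SD of 0.09 under vehicle and 0.10 under Dex. Being called favours a small spread, so that this tightness is in part built in. Of the 106, 87 were curated mRNA accessions and 10 rose at least 4-fold. The matching set of falls held 9 accessions, with a median change of -1.17 and a median signal that went from -0.12 to -1.33.

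Slide enters these values in a definite way. With slide as a fixed block, the estimate for this comparison is the difference between Dex replicate 1 and the 3 vehicle arrays on slide 1, since the other Dex arrays are needed to place slide 2. The block therefore rests on 1 Dex array, with the spread taken from all slides. It called 662 accessions (2.69%), of which 497 were among the 1599. Of the 1059 rises 403 passed (38.1%), and of the 540 falls 94 (17.4%). Of the 195 rises of at least 2-fold 125 passed, among them 92 of the 106 measured on all 6 arrays, and 6 of the 9 such falls passed. The block called rises of at least 2-fold in 144 accessions, against 195 without it, and falls of that size in 86, against 12. Over all accessions, Dex replicate 1 lay at least 2-fold above the vehicle mean in 384 and at least 2-fold below it in 455. For Dex replicate 2 these numbers were 1135 and 403, and for Dex replicate 3 they were 728 and 53. The 3 Dex arrays thus differed among themselves in how far single accessions lay below the vehicle mean. The 195 rises had a median of 1.27, 1.35 and 1.37 above the vehicle mean on Dex replicates 1, 2 and 3, and the 12 falls a median of -1.25, -1.13 and -1.19. The calls favour accessions whose replicates agree, so that this nearness is in part built in. Every one of the 1599 called accessions had groups that did not overlap, whereas 25.9% of all accessions tested did so.

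Rises and falls were spread unequally over signal level. In the dimmest quartile class of accessions by mean level 227 rose and 23 fell, which is 3.69% and 0.374% of 6147. The next quartile class held 301 rises and 111 falls, and the third held 342 and 222. Of the 227 dim rises 152 were not well above background on all 6 arrays, and some of these could enter only through the Dex group. Among dim accessions measured on all 6 arrays 75 of 2602 rose (2.88%) and 19 fell (0.73%). In the brightest quartile class rises and falls were nearly equal in number, with 189 (3.07%) and 184 (2.99%). The median called rise was 0.96 in the dimmest quartile class and 0.37 in the brightest, while the median SE of the change fell from 0.28 to 0.07. A call needs a change several times its SE, so that larger called rises at the dim end are in part built in. Of the 195 rises of at least 2-fold, 107 lay in the dimmest quartile class and 16 in the brightest. Of those measured on all 6 arrays these numbers were 20 and 16.

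Signal at the dim end also moved with the slide. Over all accessions of the dimmest quartile class, called or not, the Dex arrays on slide 2 lay a median of 0.26 and 0.27 above the vehicle mean, and the Dex array on slide 1 lay at -0.04. In the brightest quartile class the 3 medians were 0.01, -0.01 and -0.01. With slide as a block the dimmest quartile class held 76 rises and 38 falls and the brightest 88 and 52. The part of the slide in the dim rises was not tested beyond these values. Leaving out Dex replicate 1, which leaves both remaining Dex arrays on slide 2, raised the count of rises of at least 2-fold from 195 to 342. With normexp that count was 46, and it was 105 among probes well above background on all 12 arrays.

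**Figure D3:**
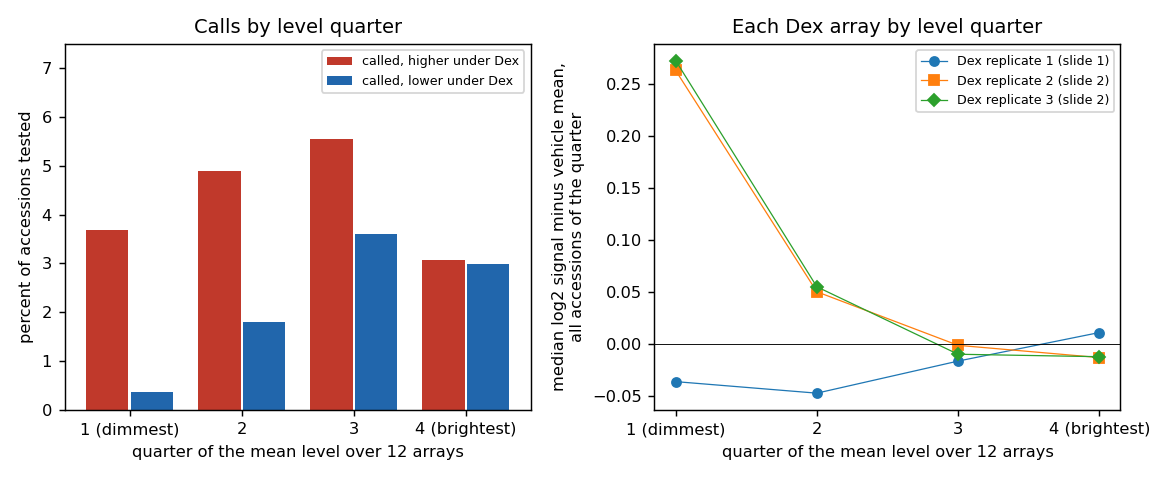
Left, percent of the accessions tested in each quartile class of mean level (horizontal axis, dimmest to brightest) that were called higher (red) or lower (blue) under Dex. Right, median log2 difference between each S211A Dex array and the vehicle mean over all accessions of a quartile class. Falls are rare in the dimmest quartile class (0.374%), where the Dex arrays on slide 2 lie 0.26 and 0.27 above the vehicle mean and the Dex array on slide 1 does not.

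A number of transcripts were seen under Dex and not under vehicle. Of the 1059 rises, 904 were well above background on all 6 arrays, and 77 were so on all 3 Dex arrays and on no vehicle array. That count was 11 with normexp, 39 with quantile normalization and 29 with slide as a fixed block, under which 27 of the 77 passed. For these 77 only a lower bound on the fold exists. The Dex mean was set against a vehicle floor, taken on each array as the dimmest probe still well above background, or the transcript itself where brighter. The bound lay above 1-fold for 74 of the 77, and the smallest was 0.95-fold, which shows no rise. The median bound was at least 1.57-fold, 17 of the 77 rose at least 2-fold by this bound, and the largest was at least 7.14-fold higher. These accessions entered the test through the Dex arrays, so that the count supports no direction of its own. Over all accessions tested, 302 had this pattern of detection, and 225 of them were not called. In S211A+MDFIC cells, whose vehicle arrays lay on slides 2 and 3, 59 of the 77 were well above background on at least 1 vehicle array, 68 on all 3 Dex arrays, and 37 were called as rises.

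The response was then described by the kind of transcript behind the accession. Curated RefSeq mRNAs, whose accessions begin with NM, made up 16443 of the accessions tested, and 848 rose and 403 fell, or 7.61% in all against 6.50% over all kinds. Their median called rise was 0.51 and their median fall -0.35, and 141 rose at least 2-fold. Curated non-coding RNAs, which begin with NR, numbered 953, of which 36 rose and 23 fell (6.19%), with a median rise of 0.67 and 13 rises of at least 2-fold. Among 1254 Ensembl transcripts 51 rose and 18 fell (5.50%). Among 2802 probes with no identifier other than their own, 46 rose and 52 fell (3.50%), the only kind in which falls outnumbered rises. The kinds differ in level, with a median log2 signal of -0.84 for mRNAs, -3.83 for non-coding RNAs and -2.67 for the probes without an identifier, and the part of level in these shares was not tested.

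Several accessions were read by more than 1 tested probe, which gives a reading of the same change at another place on the transcript. Of the 195 rises of at least 2-fold, 27 had a further probe. In all 27 of them the other probes were higher under Dex as well, with a median change of 0.87 against 1.20 for the probe used. In 11 of the 27 every other probe also rose at least 2-fold. Among the 864 smaller rises 244 had a further probe, and the other probes were all lower in 24 of them, with a median of 0.26 against 0.42 for the probe used. Among the 528 smaller falls 164 had a further probe, which was lower as well in 125 and higher in 34. Among accessions not called whose used probe was higher, the other probes were all higher in 1411 of 2409. The probes of an accession share their arrays and are no replicates of the condition. A further probe is by choice dimmer than the probe used and could enter the test through a Dex group alone. The agreement among rises can therefore be in part built in. It was not counted over further probes well above background on all 6 arrays.

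The Dex response of S211A cells was set beside that of S211A+MDFIC cells, which shares no array with it. Both responses came from the same fit and share its estimate of spread, so that their calls are not independent. Over all accessions 9.99% were called for Dex in S211A+MDFIC cells. None of the 4 named accessions had a called difference between the responses. NM_016084 rose by 3.62 on the log2 scale with MDFIC, a difference of -0.02 (SE 0.11, 95% interval -0.27 to 0.23, limma adjusted p = 0.96). NM_002686 rose by 2.74 with MDFIC, a difference of 0.16 (95% interval -0.18 to 0.51, limma adjusted p = 0.72). NM_004864 changed by -1.33, a difference of -0.10 (95% interval -0.30 to 0.10, limma adjusted p = 0.70). The fall of NM_018933 was -1.14 with MDFIC against -1.58 without it. That difference of 0.44 has an unadjusted 95% interval of 0.13 to 0.75 but did not pass over all accessions (limma adjusted p = 0.36). Its S211A+MDFIC vehicle arrays read 2.39, 2.24 and 2.55, all below the S211A vehicle arrays, the lowest of which read 2.56. These vehicle groups lay on different slides, 2 and 3 against 1, so that MDFIC and slide cannot be told apart. Its S211A+MDFIC Dex arrays read 1.27, 1.12 and 1.38.

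The responses were also read by size class, over called accessions well above background on all 12 arrays. The 10 rises of at least 4-fold had a median of 2.22 without MDFIC and 2.34 with it, and all 10 were called as rises in S211A+MDFIC cells. The 95 rises between 2-fold and 4-fold had medians of 1.21 and 1.16, with 90 called. Over all accessions 6.26% were called as rises in S211A+MDFIC cells. The 115 falls with a log2 size between 0.5 and 1 had medians of -0.63 and -0.43, and 66 were called as falls, against 3.73% over all accessions. The classes were chosen by the S211A change, which makes that change the larger on average. The calls with and without MDFIC share the estimate of spread, so that the counts called with MDFIC are not independent of the S211A calls. The 95% interval of a difference reached 0.25 to either side for the median of the 1059 rises and 0.22 for that of the 540 falls, before adjustment over all accessions.

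**Figure D4:**
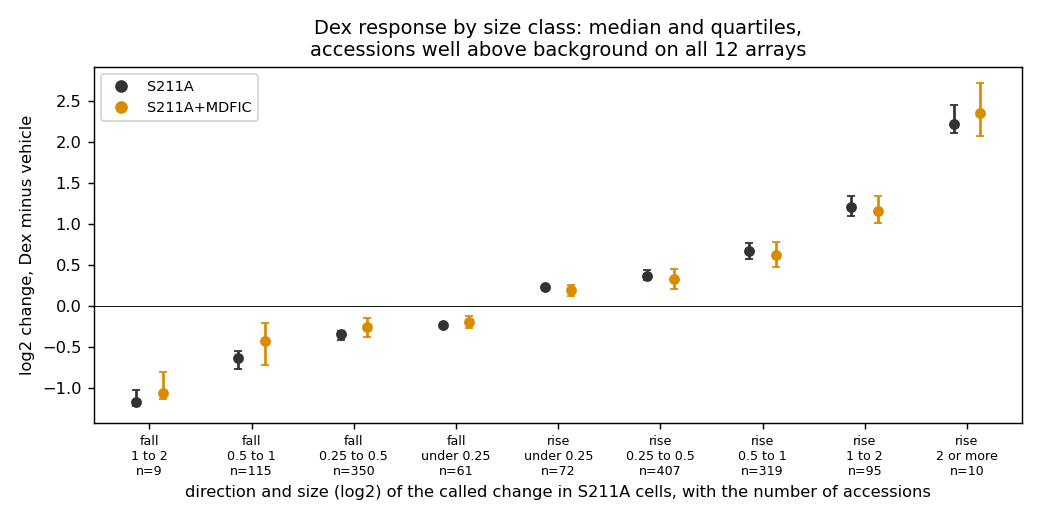
Log2 change, Dex minus vehicle (vertical axis), in S211A cells (black) and in cells with MDFIC as well (orange) for accessions well above background on all 12 arrays, grouped by the direction and size of the called change in S211A cells (horizontal axis). Points are medians and bars the quartiles over accessions. For the rises of at least 4-fold the medians are 2.22 and 2.34, and for the falls between 0.5 and 1 they are -0.63 and -0.43.

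The test of the difference between the responses called 66 accessions (0.268%), and these were unequally shared between rises and falls of S211A cells. Of the 540 falls 39 were among them (7.22%), with a median change of -0.42 without MDFIC and 0.52 with it. The 26 accessions not called in S211A cells (0.113%) had much the same medians, -0.30 and 0.51. Accessions chosen by a large difference tend to have changes of opposite sign. These medians therefore do not show that falls reverse with MDFIC. Of the 1059 rises 1 was among the 66 (0.0944%). The test and the calls share the S211A arrays, so that the counts are not independent. The single rise, NR_026791, was chosen after its values were seen. It read -7.55, -7.38 and -7.36 under vehicle and -5.76, -5.56 and -4.63 under Dex, and all 3 of these Dex arrays, but none of the other 9, read it well above background. The lower bound on this rise was at least 1.37-fold, and the fitted log2 change was 2.12 (SE 0.27, limma adjusted p = 0.0014). With MDFIC the fitted change was -0.25, a difference of -2.37 (limma adjusted p = 0.048). That difference rests on arrays with MDFIC that did not read the accession well above background. With slide as a fixed block 39 other accessions passed and 0 of the 66 did (limma, 1797 accessions at an unadjusted p under 0.05). In that fit the response with MDFIC is its Dex mean minus vehicle replicate 3, and that of S211A cells is Dex replicate 1 minus the vehicle mean. Each response thus rests on 1 array of a group. With slide as a random block 153 passed, all 66 among them. The fitted correlation within slides was -0.065 there, so that this block took out no shared slide effect. The count also fell to 0 to 4 on leaving out any 1 of 9 of the 12 arrays.

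The count of 1599 depended on single arrays and on the arrays that share the estimate of spread. Leaving out vehicle replicate 1 gave 1033, and leaving out vehicle replicate 2 gave 1057. The count was 1043 when Dex replicate 2 was left out and 913 when Dex replicate 3 was. With only the 6 S211A arrays in the fit it was 838, of which 776 were among the 1599.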

How the data were processed

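Values came from 12 single-colour array files. The deposited processed intensity was made by the authors with Agilent Feature Extraction 12.0.0.7 (version 12 per the submitters' processing notes). The file headers hold a background-subtracted signal and statistics of a spatial detrend, and the exact correction is not given in the sources used here. The other deposited columns used, per the file headers, are flags for spots well above background, saturated or outlying. The intensity in the authors' deposited series table was identical. Probes of ControlType 0 were taken to log2 and each array's 75th percentile was subtracted. The 945 outlier spots were set to missing, spots of 1 probe were averaged, and probes were kept where some group had all 3 arrays well above background and each group at least 2 values. The brightest probe stood for its accession. limma 3.58.1 (R 4.3.3) compared the groups, as contrasts of 4 group means over 12 arrays, two-sided, with Benjamini-Hochberg adjustment over 24586 accessions. "Called" means an adjusted p under 0.05. The fit was tested on simulated data. Figures were drawn with matplotlib 3.10.9.

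Named accessions are the 2 largest called rises and the 2 largest called falls among those well above background on all 6 S211A arrays with groups that did not overlap, leaving out identifiers that repeat the probe's own. The rule asked for gene symbols, which the files do not give. Members and lists were chosen with earlier results of these data known. The 3 samples of a group are biological replicates per the labels. Whether they came from separate transfections is not given in the sources used here, and p-values measure the spread between these samples. Same-numbered vehicle and Dex arrays did not all deviate together (r of 0.107, 0.155 and -0.008), so that the numbers were not used as pairs. Differently numbered arrays had r of -0.137 to 0.038, and whether the numbers mark pairs is not known. Alternatives covered background correction, scaling, filters, outlier spots, probe choice, variance moderation, arrays in the fit, slide, replicate number, each array left out and a further minimum of 1.5-fold.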

Additional observations from a re-analysis of the deposited data

Results flagged for a closer look

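The Dex response differed between S211A and S211A+MDFIC cells in 66 accessions by limma's test of the difference itself, with Benjamini-Hochberg adjustment. Of these, 39 were called as falls in S211A cells, 1 as a rise, and 26 were not called there. Of the 66, 0 passed with slide as a fixed block, where each response rests on 1 array of its Dex or vehicle group. All 66 passed with slide as a random block, whose fitted correlation of -0.065 took out no shared slide effect. In S211A cells, leaving out Dex replicate 1 or 3 gave 0 accessions, and so did leaving out replicate 1 of either group with MDFIC (2510, 2145, 1807 and 1898 in limma at an unadjusted p under 0.05). Without MDFIC, leaving out vehicle replicate 1 or 3 or Dex replicate 2 gave 1 to 4, and with MDFIC so did vehicle replicate 2 or Dex replicate 3. The count was 136 when vehicle replicate 2 of S211A cells was left out. Among the arrays with MDFIC it was 99 when vehicle replicate 3 was left out and 264 when Dex replicate 2 was. The cause was not tested. Groups of 3 arrays are too small for a check on single outlying arrays.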

How the results depend on the processing

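The log2 changes of NM_016084, NM_002686, NM_018933 and NM_004864 kept their direction under the 27 alternatives. Leaving aside the fit within slide 1, each of these changes passed under every alternative. The fit within slide 1 holds a single Dex array, so that only sizes are read from it (the falls were -1.58 and -1.16). For the same accessions, the differences between the Dex responses passed under none of 25. The count of accessions called for Dex in S211A cells, 1599, stayed within 1.5 times under 17 of 27 alternatives. It was 965 with normexp, 506 for the series table without scaling, 838 with only the 6 S211A arrays in the fit, 662 with slide as a fixed block, 34 within slide 1 and 561 with at least 1.5-fold as well. Leaving out each of the 12 arrays gave 913 to 1812. The 66 calls for the difference between the Dex responses were 125 with normexp, 0 without scaling and 0 without the filter on dim probes (943 and 3320 in limma at an unadjusted p under 0.05), 146 with probes well above background on all 12 arrays, 36 with the mean of probes, 187 with trend and robust moderation, 39 with slide as a fixed block and 153 with slide as a random block. Leaving out each array gave 0 to 264. With the replicate number as a block (replicate block) the counts were 1258 and 58. Whether the numbers pair the samples is not given in the sources used here. The share of rises among the calls, 66.2%, was 51.6% with median centring, 84.0% without scaling and 75.8% with only the 6 arrays. The causes were not tested. Signals near background give a bound only, which limits the dimmest quartile class.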
